A study of Mus musculus with 5 samples.

Results

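The 10 genes described here encode the ligands, receptors and Smad proteins of transforming growth factor beta (TGF-beta) signalling. They were taken by name from the 54232 genes of the expression table and comprise the ligands Tgfb1, Tgfb2 and Tgfb3, the receptors Tgfbr1 and Tgfbr2, the co-receptor Tgfbr3, and Smad2, Smad3, Smad4 and Smad7. RNA was sequenced from primary mouse myoblasts, muscle precursor cells selected from leg muscle with a magnetic satellite cell isolation kit and anti-integrin beads, after 72 h in low-serum differentiation medium. The groups were WT (n = 3) and Elmo2 EID/EID (n = 2) cultures, from mice 6 to 8 weeks old on a mixed C57BL6 and 129SV background. Both alleles of the latter carry a knock-in that replaces an isoleucine of ELMO2 by an aspartate and favours the open form of this activator of RAC signalling. The knock-in lies at the endogenous gene and is present in all cells of the animal. The study asked whether a lasting change in ELMO2 conformation alters the expression of genes for myoblast fusion, and Tgfbr2 was among the genes it examined in these libraries.

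TGF-beta ligands are secreted in a latent form and, once released, bring together the type II receptor TGFBR2 and the type I receptor TGFBR1. The activated type I receptor phosphorylates SMAD2 and SMAD3, which enter the nucleus with SMAD4 and regulate transcription, while SMAD7 is induced by the signal and limits it. In muscle, TGF-beta is known to restrain both differentiation and fusion of myoblasts.

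The deposited values are normalized counts, the reads of a gene divided by a size factor of the library. The reads behind them were recovered, and libraries held between 35021856 and 49381544 reads. The depth differed between WT libraries, and WT replicate 3 was the shallowest. Muscle genes were abundant in every library, with between 458389 and 518055 normalized counts of Acta1 (skeletal actin) and between 395823 and 602709 of Myh3 (embryonic myosin heavy chain). Xist was at 11825 normalized counts or above in all 5 libraries, and the 4 Y-linked genes examined were at or under 3 reads in each, so by these genes the libraries did not differ in sex. Elmo2 itself had between 1539 and 1660 normalized counts in WT and 1441 and 1327 in Elmo2 EID/EID myoblasts, and since the knock-in changes a codon, this level does not check the labels. WT replicate 2 stood apart in several genes named below, and values without it are given where they bear on a result.

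Fold changes compare Elmo2 EID/EID with WT as differences of log2(normalized count + 1). They come from limma, fitted on the 18156 genes that reached 5 normalized counts in any library, and adjusted p-values cover all of these genes (Benjamini-Hochberg). All 10 genes passed this filter. None had an adjusted p under 0.05, against 2.23% of all genes tested. Unadjusted p-values under 0.05 were found for 2 of the 10, Tgfbr2 and Tgfbr3, against 15.2% of all genes. The same 2 genes were the only members whose groups did not overlap, a separation seen in 32.6% of all genes tested. Tgfbr2 was lower and Tgfbr3 higher in both Elmo2 EID/EID libraries than in any WT library. By edgeR's quasi-likelihood test on the recovered reads 0 of the 10 passed (2.25% of all genes), and with the replicate number as a block in limma 0 passed (1.23% of all genes). By the DESeq2 Wald test, the tool of the study, both Tgfbr2 and Tgfbr3 passed (5.55% of all genes, 3.17% lower and 2.38% higher). The median log2 fold change was 0.01 over the 10 genes and 0.01 over all genes tested. Because these are bulk cultures, fewer cells of a type and less RNA per cell cannot be told apart.

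**Figure D1:**
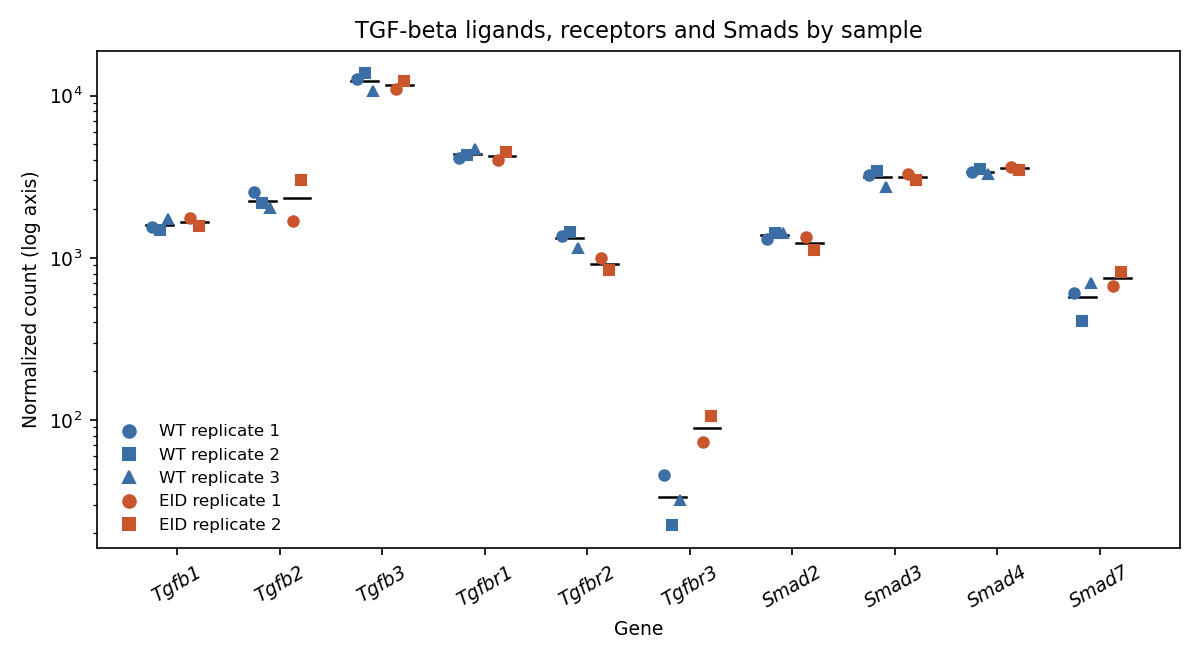
Normalized count (log axis) of each of the 10 genes in each library, with WT in blue, Elmo2 EID/EID (EID) in orange, the replicate number as the marker shape and the group mean as a black line. The groups are separate for Tgfbr2, lower in EID, and for Tgfbr3, higher in EID, and overlap for the other 8 genes.

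The genes differed widely in level. Per kilobase of exon, Tgfb3 was the most abundant, with 3660 ± 450 normalized counts per kb (SD, n = 3) in WT, a level above 97.0% of the protein-coding genes tested. Smad4 followed with 914 ± 30.3, Tgfbr1 with 671 ± 42.3, Smad3 with 567 ± 66.4, Tgfb2 with 388 ± 45.6 and Tgfb1 with 315 ± 25.7 per kb. In WT none of these neighbours overlapped in range with this length. Below them came Tgfbr2 (161 ± 19.0 per kb), Smad2 (157 ± 7.78) and Smad7 (127 ± 33.2), whose ranges overlapped with each other. They did not overlap with Tgfb1 above or Tgfbr3 below. Tgfbr3 was the lowest, at 5.13 ± 1.80 per kb, above 12.5% of protein-coding genes. In Elmo2 EID/EID myoblasts the order of the 6 most abundant genes was the same by mean, although the ranges of Tgfb2 and Tgfb1 overlapped. Tgfbr2, at 112 ± 13.6 per kb (SD, n = 2), came below Smad7 (165 ± 23.5) and Smad2 (140 ± 18.4) there. With the longest transcript as the length, Tgfb1 (617 per kb in WT) came above Tgfb2 (439 per kb), and its range overlapped that of Smad3 (617 per kb). In Elmo2 EID/EID myoblasts Tgfb1 (649 per kb) came above Smad3 (621 per kb) by mean. The place of Tgfb1 in the order thus depends on the length used.

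Tgfb3, Tgfb2 and Tgfb1 encode the 3 secreted ligands. Tgfb3 (ENSMUSG00000021253, GRCm38 chromosome 12, 86056745 to 86079041, minus strand) had 12691, 13725 and 10730 normalized counts in WT replicates 1, 2 and 3 and 11060 and 12224 in Elmo2 EID/EID replicates 1 and 2. The groups overlapped, and the log2 fold change was -0.08 (95% interval -0.35 to 0.18). Tgfb2 (ENSMUSG00000039239, chromosome 1, 186622792 to 186705989, minus strand) had 2537, 2182 and 2020 normalized counts in WT and 1688 and 3006 in Elmo2 EID/EID myoblasts. Here the Elmo2 EID/EID libraries were the lowest and the highest of the 5, on either side of all WT values. This left the log2 fold change at 0.01 with an interval from -0.54 to 0.56, and it was -0.41 without Elmo2 EID/EID replicate 2. Tgfb1 (ENSMUSG00000002603, chromosome 7, 25687002 to 25705077, plus strand) had 1538, 1490 and 1734 normalized counts in WT and 1762 and 1576 in Elmo2 EID/EID myoblasts. Its values overlapped between the groups, with a log2 fold change of 0.07 (95% interval -0.15 to 0.29).

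Tgfb3 was the predominant ligand in every library. Tgfb3 made up 83.5%, 85.8% and 82.1% of the summed per-kb level of the 3 ligands in WT and 83.6% and 81.3% in Elmo2 EID/EID myoblasts. Tgfb2 contributed between 7.97% and 9.75% in WT, 7.45% in Elmo2 EID/EID replicate 1 and 11.7% in replicate 2, on either side of the WT shares, and Tgfb1 between 6.25% and 8.94% in the 5 libraries. With the longest transcript as the length, the mean share of Tgfb3 was 77.5% in WT and 75.7% in Elmo2 EID/EID myoblasts. The depth of the libraries leaves little counting error in these shares, and no test was made on them.

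TGFBR1 and TGFBR2 are the kinases of the receptor complex. Tgfbr1 (ENSMUSG00000007613, chromosome 4, 47353222 to 47414931, plus strand) had 4139, 4322 and 4683 normalized counts in WT and 4038 and 4486 in Elmo2 EID/EID myoblasts. The values overlapped, and the log2 fold change was -0.04 (95% interval -0.23 to 0.15).

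Tgfbr2 (ENSMUSG00000032440, chromosome 9, 116084293 to 116175360, minus strand) had 1366, 1449 and 1149 normalized counts in WT and 994 and 837 in Elmo2 EID/EID myoblasts. The highest Elmo2 EID/EID value lay below the lowest WT value, that of replicate 3. The ratio of the group means was 0.693 and the log2 fold change -0.53 (95% interval -0.82 to -0.23, limma adjusted p = 0.0974). The adjusted p was 0.0886 by edgeR's quasi-likelihood test and 0.00878 by the DESeq2 Wald test, so the call depends on the test. Since the study examined this gene in the same libraries, these values are no independent evidence of its direction. The interval of Tgfbr2 did not include 0, whereas those of Tgfbr1 and of the 3 ligands did.

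The ratio of Tgfbr2 to Tgfbr1 within a library does not depend on the size factor. Per kb it was 0.263, 0.268 and 0.196 in WT replicates 1, 2 and 3 and 0.197 and 0.149 in Elmo2 EID/EID replicates 1 and 2. Thus the ratio of WT replicate 3 lay just under that of Elmo2 EID/EID replicate 1, and on this measure the groups overlapped. The mean ratio was 0.242 in WT and 0.173 in Elmo2 EID/EID myoblasts. No test was made on this ratio.

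**Figure D2:**
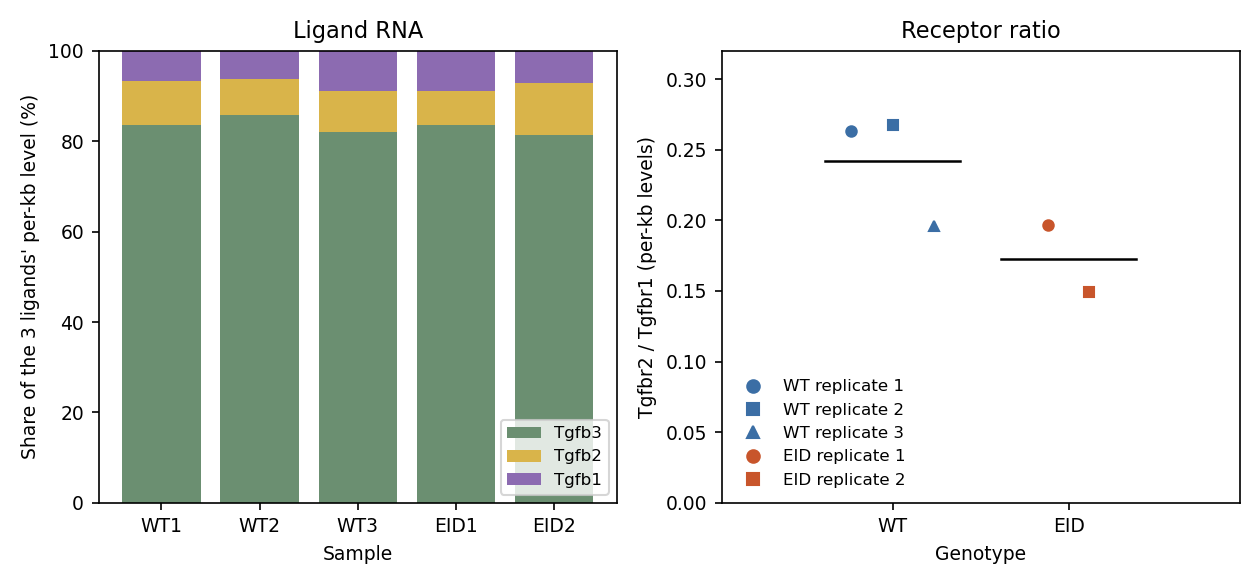
Left, share of the summed per-kb level of Tgfb1, Tgfb2 and Tgfb3 taken by each ligand in each library (%); right, ratio of the per-kb levels of Tgfbr2 and Tgfbr1 in WT (blue) and Elmo2 EID/EID (EID, orange) libraries with group means as black lines. Tgfb3 took between 81.3% and 85.8% in every library, and the receptor ratio of WT replicate 3 (0.196) lay beside that of EID replicate 1 (0.197).

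Because Tgfbr2 was the only member that was lower in both Elmo2 EID/EID libraries, the 250 bases before its transcription start are shown, from RefSeq on GRCm38.p6 (chr9:116175364-116175613, minus strand), written in the direction of transcription. The capitals mark the motif CAGAC, a half-site of the SMAD binding element.
Tgfbr2: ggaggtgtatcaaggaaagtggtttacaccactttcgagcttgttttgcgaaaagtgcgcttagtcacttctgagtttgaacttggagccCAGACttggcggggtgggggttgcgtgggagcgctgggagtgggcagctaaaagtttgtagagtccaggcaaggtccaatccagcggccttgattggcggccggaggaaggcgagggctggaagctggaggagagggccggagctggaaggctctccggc
CAGAC, or GTCTG for the opposite strand, occurred 1 time, with its first base 160 bases before the start, and 42.2% of all 32851 promoter windows of this length held it. CAGCTG, an E-box favoured by myogenic factors such as MYOD1 and its own reverse complement, was not among these letters and was held by 13% of the windows. The motif matches describe the sequence alone.

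TGFBR3, also called betaglycan, is a co-receptor without a kinase that presents ligand, TGF-beta2 above all, to TGFBR2. Tgfbr3 (ENSMUSG00000029287, chromosome 5, 107106570 to 107289629, minus strand) had 45.9, 22.4 and 32.3 normalized counts in WT and 73.3 and 105.8 in Elmo2 EID/EID myoblasts. All WT values were below both Elmo2 EID/EID values, with WT replicate 2 the lowest. The ratio of the means was 2.67 and the log2 fold change 1.42 (95% interval 0.60 to 2.25, limma adjusted p = 0.104). The adjusted p was 0.0914 by edgeR and 0.0201 by DESeq2, a call that again depends on the test. These levels rest on 52, 20 and 26 reads in WT and 82 and 118 reads in Elmo2 EID/EID libraries. The exact Poisson intervals cover counting error only. They reached 60.2 normalized counts in WT replicate 1 and began at 58.3 in Elmo2 EID/EID replicate 1. These intervals overlapped, which does not test the difference between the 2 libraries, and no such test was made. Without WT replicate 2 the log2 fold change was 1.17.

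Marker genes of endothelial cells separated the groups in the same direction as Tgfbr3. The 10 endothelial marker genes summed to 1180, 277 and 1260 normalized counts in WT and to 3193 and 5035 in Elmo2 EID/EID libraries. Of these genes 9 were higher in both Elmo2 EID/EID libraries than in any WT library, against 16.7% of all genes tested, and all 10 had their lowest WT value in replicate 2. Emcn (endomucin) had 293, 41.5 and 240 normalized counts in WT and 817 and 1439 in Elmo2 EID/EID libraries, and Ptprb, an endothelial phosphatase, 255, 57.2 and 327 against 868 and 1453. Cldn5, a claudin of endothelial tight junctions, was the exception, with between 1.79 and 6.18 normalized counts in all 5 libraries and both Elmo2 EID/EID values below those of WT. No endothelial marker passed an adjusted p of 0.05 by limma or edgeR, 7 had an unadjusted p under 0.05 (15.2% of all genes), and 2 passed by DESeq2 (5.55%). Without WT replicate 2 limma called 4 of them, Cdh5, Ptprb, Emcn and Pecam1 (adjusted p from 0.0189 to 0.0354). That fit called 209 of the 17945 genes it tested. The log2 fold changes of the 4 genes were lower there, such as 2.03 in place of 2.91 for Emcn. Cdh5 and Pecam1 are named after their values were seen. The bead selection was for muscle precursor cells. The part of endothelial RNA in the level of Tgfbr3 was not tested.

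SMAD2 and SMAD3 are the receptor-activated Smads of the TGF-beta branch and SMAD4 their common partner. Smad3 (ENSMUSG00000032402, chromosome 9, 63646767 to 63757994, minus strand) had 3243, 3447 and 2732 normalized counts in WT and 3296 and 3026 in Elmo2 EID/EID myoblasts. The groups overlapped, with a log2 fold change of 0.01 (95% interval -0.24 to 0.27). Smad2 (ENSMUSG00000024563, chromosome 18, 76241580 to 76310963, plus strand) had 1303, 1417 and 1426 normalized counts in WT and 1348 and 1119 in Elmo2 EID/EID myoblasts, and a log2 fold change of -0.17 (95% interval -0.40 to 0.07). Elmo2 EID/EID replicate 2 was the lowest of the 5 and replicate 1 lay among the WT values, and the log2 fold change was -0.035 without replicate 2 and -0.30 without replicate 1. Per kb, Smad2 had between 0.233 and 0.329 of the level of Smad3 in the 5 libraries, without a separation of the groups. Smad4 (ENSMUSG00000024515, chromosome 18, 73639009 to 73703780, minus strand) varied least among the WT libraries. It was measured at 3358, 3518 and 3300 normalized counts there and at 3628 and 3503 in Elmo2 EID/EID myoblasts. Its interval from -0.07 to 0.22 around a log2 fold change of 0.07 was the narrowest of the 10 genes.

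SMAD7 is the inhibitory Smad, itself a rapid target of the signal. Smad7 (ENSMUSG00000025880, chromosome 18, 75367529 to 75395935, plus strand) had 608, 407 and 701 normalized counts in WT and 671 and 821 in Elmo2 EID/EID myoblasts. WT replicate 3 lay above Elmo2 EID/EID replicate 1, so the groups overlapped. A log2 fold change of 0.41 (95% interval -0.13 to 0.95, limma adjusted p = 0.459) was obtained, and without WT replicate 2, the lowest library, it was 0.18.

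**Figure D3:**
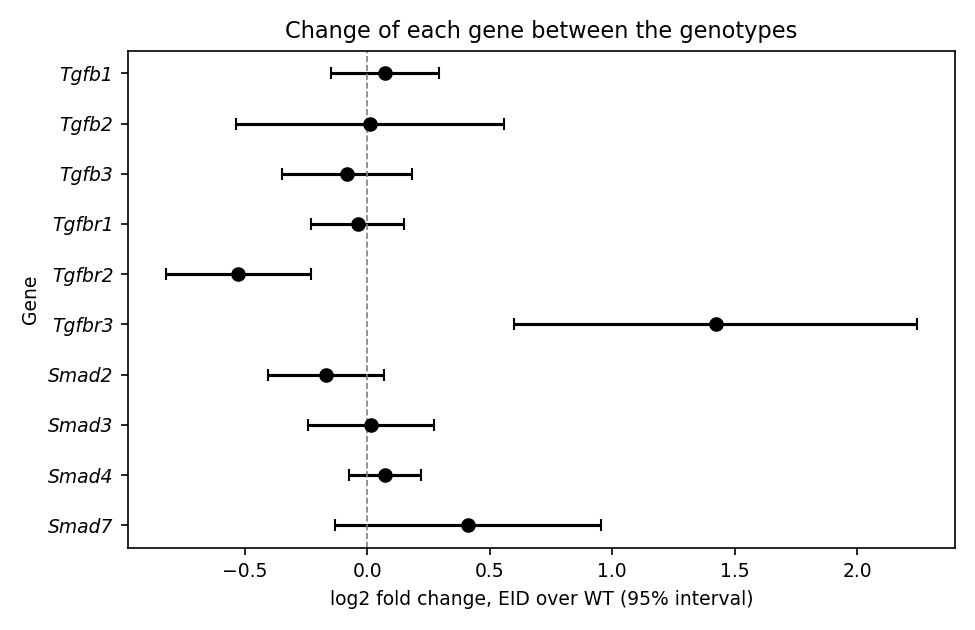
log2 fold change of each gene, Elmo2 EID/EID (EID) over WT, as a point with its 95% interval from limma as a bar and the dashed line at no change. The intervals of Tgfbr2 (-0.82 to -0.23) and Tgfbr3 (0.60 to 2.25) did not include 0, and those of the other 8 genes did.

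None of the 10 genes lies on chromosome 2, which carries Elmo2. Within 1 Mb of Tgfbr2 4 other protein-coding genes were tested and 0 passed by limma. Around the other 9 genes the number tested ranged from 5 to 26, and 1 gene passed, Nr4a3 near Tgfbr1, which is named here after its value was seen, against 2.23% of all genes tested. The only genes on the same strand that overlap a member are 3 gene models inside Tgfbr3, each at 0 in every library.

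The value of Tgfbr2 was set beside a list of 64 other genes that release, bind or transmit TGF-beta, of which 63 were tested. By limma 1 gene passed, Mmp14, which was lower (1.14% of all genes tested), and 0 were higher (1.09%), and the median log2 fold change was 0.02 against 0.01 over all genes tested. Mmp14, a membrane-bound metalloproteinase that can release latent TGF-beta, fell from 2594 ± 349 normalized counts (SD, n = 3) to 1684 ± 77.5 (SD, n = 2), with a log2 fold change of -0.62 ± 0.11 (standard error, limma adjusted p = 0.0486). This call was near the threshold and was lost in 9 of 15 alternative settings, among them the fits without WT replicate 1, WT replicate 2, Elmo2 EID/EID replicate 1 or Elmo2 EID/EID replicate 2. By DESeq2 4 genes of the list passed, all lower: Mmp14, Emilin1, Mmp2 and Nrros, the last named after its value was seen, against 5.55% of all genes in either direction and 3.17% lower by that test.

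Of the 63 genes 12 were lower in both Elmo2 EID/EID libraries than in any WT library and 11 were higher, where the shares over all genes tested were 15.9% and 16.7%. Among the 22 genes for the latent complex and its release, 8 were lower in this way and 2 were higher, among the 21 co-receptors and regulators 2 were lower and 5 higher, and among the 14 other Smads, partners and co-repressors 2 were lower and 3 higher. Emilin1, a matrix glycoprotein that holds back the processing of the TGF-beta precursor, had 347, 330 and 460 normalized counts in WT and 220 and 197 in Elmo2 EID/EID myoblasts. Mmp2, a gelatinase activated by MMP14, had 551, 820 and 676 in WT and 423 and 471 in Elmo2 EID/EID myoblasts. Bmp1, a protease of procollagens that also cleaves latent TGF-beta binding proteins, had 3060, 2525 and 2516 against 2164 and 2053. The groups were separate for each of these genes, with log2 fold changes of -0.84 for Emilin1, -0.59 for Mmp2 and -0.35 for Bmp1. In the other direction, Ltbp2, a latent TGF-beta binding protein of elastic fibres, had 912, 789 and 844 normalized counts in WT and 1198 and 2769 in Elmo2 EID/EID myoblasts. Its log2 fold change of 1.10 did not pass (limma adjusted p = 0.158). It was 0.50 without Elmo2 EID/EID replicate 2, and 1.71 without replicate 1, where it passed (limma adjusted p = 0.0228).

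Of the co-receptors and regulators of the receptors, 0 passed by limma. Eng, which encodes the endothelial co-receptor endoglin, had 919, 453 and 1048 normalized counts in WT and 1249 and 1899 in Elmo2 EID/EID libraries. Acvrl1, the endothelial type I receptor ALK1, had 179, 46.0 and 169 in WT and 185 and 205 in Elmo2 EID/EID libraries. Cav1, the caveolin that takes part in receptor endocytosis, had 3067, 1484 and 2481 against 3356 and 4214. For all 3 genes both Elmo2 EID/EID values lay above the WT values and WT replicate 2 was the lowest library, as it was for the endothelial markers. The log2 fold changes were 1.02, 0.79 and 0.74, and without WT replicate 2 they were 0.65, 0.16 and 0.45. Among the 14 tested Smads, partners and co-repressors outside the 10 genes, and the 6 genes of the branch without Smads, 0 passed by limma.

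Over the 5 libraries, the profiles most like that of Tgfbr2 among the 93 list genes whose mean reached 100 normalized counts were those of Mmp14, Dact1 and Bmp1. Likeness was measured as the root-mean-square difference of the centred log2 values, which was 0.14, 0.16 and 0.16. Dact1, an inhibitor of WNT signalling induced by TGF-beta, had 272, 275 and 277 normalized counts in WT and 209 and 146 in Elmo2 EID/EID myoblasts.

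**Figure D4:**
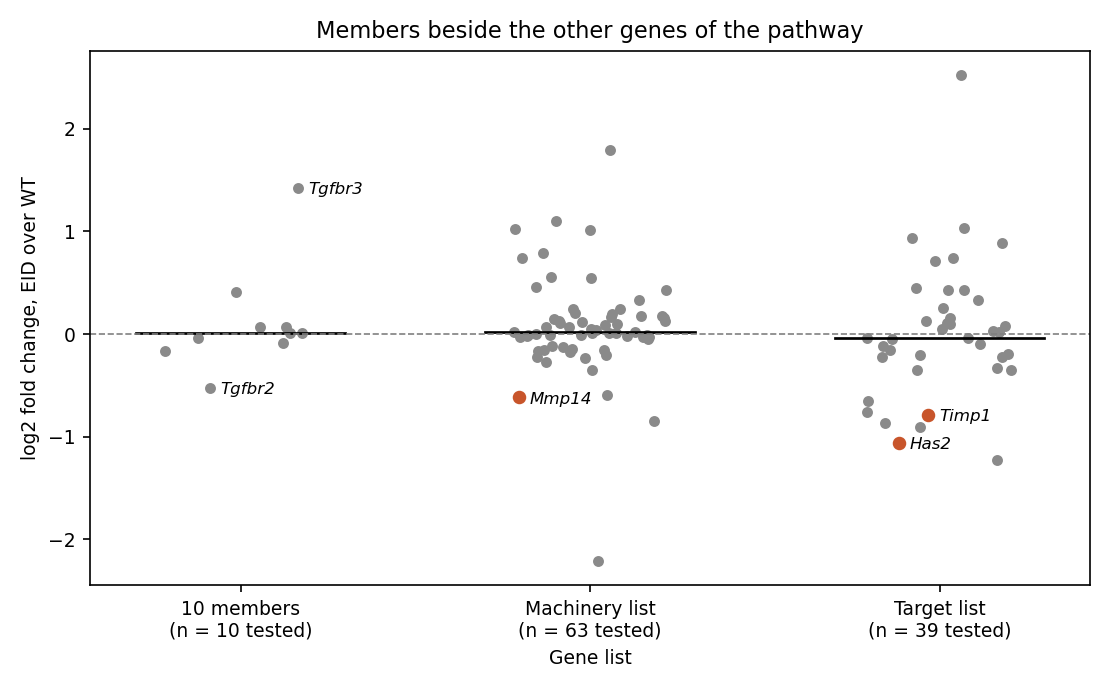
log2 fold change, Elmo2 EID/EID (EID) over WT, of the 10 genes, the 63 tested genes of the machinery list and the 39 genes of the target list, 1 point a gene spread sideways at random. Black lines are medians (0.01, 0.02 and -0.03), and orange points are genes with an adjusted p under 0.05 by limma (Mmp14, Has2 and Timp1), all below 0.

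The question of whether known target genes differed was addressed with a list of 39 genes that TGF-beta induces in mesenchymal cells, all tested. By limma 2 passed, Has2 and Timp1, both lower (1.14% of all genes tested), and the median log2 fold change was -0.03. Has2, a hyaluronan synthase, had 688, 646 and 546 normalized counts in WT and 351 and 255 in Elmo2 EID/EID myoblasts. It fell by 1.06 on the log2 scale (standard error 0.17, limma adjusted p = 0.0320). Timp1, an inhibitor of metalloproteinases, had 4309, 4202 and 4301 normalized counts in WT and 2814 and 2178 in Elmo2 EID/EID myoblasts. A decrease of the same kind, with a log2 fold change of -0.79, had an adjusted p of 0.0200 in this limma fit. Neither gene passed without WT replicate 1, WT replicate 2 or Elmo2 EID/EID replicate 2, and Has2 did not pass without Elmo2 EID/EID replicate 1 either. DESeq2 called 6 of the 39, all lower, against 3.17% of all genes lower by that test.

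In both Elmo2 EID/EID libraries 9 of the 39 targets were lower than any WT library and 5 were higher, against 15.9% and 16.7% of all genes tested. Tnc, the matrix protein tenascin C, had 12055, 12566 and 6568 normalized counts in WT and 4848 and 3753 in Elmo2 EID/EID myoblasts, a log2 fold change of -1.23 (limma adjusted p = 0.0883). Without WT replicate 3 it was -1.53 and passed (limma adjusted p = 0.00735). Col3a1, a fibrillar collagen, had 9036, 7705 and 6694 against 5345 and 3226. Snai2, a transcription factor of the Snail family, had 499, 339 and 346 in WT and 214 and 212 in Elmo2 EID/EID myoblasts. In Tnc and Col3a1 the lowest WT value, in each case replicate 3, was the closest to the Elmo2 EID/EID values.

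Edn1 and Nox4 were among the targets higher in both Elmo2 EID/EID libraries. Edn1, which encodes endothelin 1, had 94.5, 17.9 and 102 normalized counts in WT and 258 and 416 in Elmo2 EID/EID libraries. Nox4, an NADPH oxidase, had 150, 88.6 and 137 against 210 and 201. WT replicate 2 was the lowest for both, and neither passed by limma, with log2 fold changes of 2.52 and 0.75. Without WT replicate 2 the values were 1.73 and 0.52, and Edn1 then passed (limma adjusted p = 0.0437). Edn1 is also made by endothelial cells, whose marker sums are given above, and their part in its values was not tested.

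Markers of other cell types that express TGF-beta receptors were measured beside these results. The sums of the fibro-adipogenic markers were 1493, 218 and 1168 normalized counts in WT and 1158 and 1287 in Elmo2 EID/EID libraries, without a separation of the groups, and Lum and Pi16 were at or under 3 reads in every library. Pdgfra, a receptor that marks these cells, had 758, 120 and 505 against 275 and 542, and the collagen gene Col15a1 had 429, 26.9 and 399 against 663 and 314. The 6 tested genes of the list had a median log2 fold change of 1.10, and WT replicate 2 was the lowest WT library in 5 of them. For 1 of these, Dpt, it tied with WT replicate 3 at 0 normalized counts, and Dpt is named after its value was seen. Without WT replicate 2 the log2 fold changes were -0.68 for Pdgfra, in place of 0.11, and 0.14 for Col15a1, in place of 1.44. Pdgfra was also below 0 by edgeR (-0.19) and DESeq2 (-0.17). Of the 6 tested genes 2 were higher in both Elmo2 EID/EID libraries than in any WT library (16.7% of all genes). These were Cd34 and Dcn, both named after their values were seen. Cd34 had means of 59.4 and 146 normalized counts in WT and Elmo2 EID/EID libraries. Dcn, which the machinery list also holds, had between 1.77 and 4.97 in WT and 8.05 and 17.9 in Elmo2 EID/EID libraries. The pericyte and smooth muscle markers summed to between 10989 and 12819 normalized counts in WT and to 10016 and 9956 in Elmo2 EID/EID libraries. Most of this came from Abcc9 and Cspg4, and Kcnj8 was at or under 3 reads in every library. In this list 2 of 6 tested genes fell by limma (1.14% of all genes), Rgs5 (from a mean of 93.8 to 10.7 normalized counts) and Notch3 (from 2819 to 1011), both named after their values were seen. Cspg4 (means of 2090 and 2711 in WT and Elmo2 EID/EID libraries) and Myh11 (49.5 and 117), the latter also named after its value was seen, had the groups separate in the other direction and did not pass. Of the 8 Schwann cell markers Egr2 fell, from a mean of 333 to 154 normalized counts, and the means of Pmp22 were 349 in WT and 444 in Elmo2 EID/EID libraries. Each of these calls was lost without some library: Rgs5 without either Elmo2 EID/EID library, Notch3 without any 1 of the WT libraries and Egr2 without WT replicate 1 or either Elmo2 EID/EID library, with limma adjusted p-values of at most 0.0966, 0.112 and 0.181. By limma 0 of the 8 muscle, 0 of 6 fibro-adipogenic, 0 of 6 macrophage and 0 of 10 cycling cell markers passed. Unadjusted p-values under 0.05 were found for 1, 2, 1 and 4 of them (15.2% of all genes), edgeR called 0 in each list (2.25%), and DESeq2 called 1 cycling cell marker and 0 in the other lists (5.55%). Macrophage markers were low, between 139 and 291 normalized counts in sum, with Mrc1 and Itgam the most abundant and Fcgr1 at 0 in every library. Rrm2 and Pcna led the cycling cell list, which summed to between 6847 and 8302 in WT and to 7496 and 9088 in Elmo2 EID/EID libraries. Rrm2, a subunit of ribonucleotide reductase, had a log2 fold change of 0.56, whereas those of the other 9 cycling cell markers were below 0, with 4 of them lower in both Elmo2 EID/EID libraries than in any WT library (15.9% of all genes) and a list median of -0.35. Of these Top2a, a topoisomerase of dividing cells, passed by limma without WT replicate 3 (adjusted p = 0.0178), and it is named after its value was seen. The part of these cell types in the levels of the 10 genes was not tested.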

How the data were processed

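RNA of 5 cultures was sequenced as stranded poly-A libraries. The authors aligned untrimmed read pairs to GRCm38 with STAR 2.5.1b. Unique alignments were assigned to genes by featureCounts 1.4.6 with the reverse-strand setting. The deposited signal is a count scaled by the size factor of DESeq2 1.34.0. Division by the value of 1 read gave whole numbers within 0.01 for 100% of values, so the reads were recovered. Gene names, positions and exon lengths came from GENCODE M21 on GRCm38 (54165 of 54232 identifiers matched), and promoter sequences from RefSeq (GRCm38.p6, 5 of the 10 genes).

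The main test was limma 3.58.1 (R 4.3.3), two-sided, with a mean-variance trend, on log2(normalized count + 1) of genes that reached 5 normalized counts in any library, with genotype as the only term. edgeR 4.0.16 and DESeq2 1.42.0 were run on the recovered reads as alternatives. All tests were tried on simulated counts. Intervals are 95%. Levels between genes were compared per kb of the union of exons. The genes and lists were chosen with earlier results of these data known. The named genes were the 10, those of both pathway lists that passed limma, the 4 largest changes per list and direction with a mean of at least 100 and no overlap, the 3 most like Tgfbr2 and the 2 most abundant of each marker list, except 1 gene that is not reported here. The study's reporting notes say that primary cells typically came from independent mice, but the labels do not tie these libraries to animals, so p-values measure the spread between the libraries, which may be technical.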

Additional observations from a re-analysis of the deposited data

How the results depend on the processing

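Of 15 alternative settings, 14 left 0 of the 10 genes called, and the DESeq2 Wald test called 2. Tgfbr2 stayed lower in all 15, with log2 fold changes from -0.65 to -0.40 when each library was left out in turn, and passed by DESeq2 only (-0.53). Tgfbr3 stayed higher in all 15 and also passed by DESeq2 only. The count of machinery genes was 0 with a pseudocount of 0.5, without a filter on low values, with a mean of at least 10, with equal totals and without the trend, 4 by DESeq2, and 0 to 1 with a library left out. The count of target genes was 0 without a filter or without the trend, 6 by DESeq2, and 0 to 3 with a library left out. Among all genes tested 404 passed by limma, 961 by DESeq2, 155 without the filter, 144 without the trend, 224 with the replicate block and 54 to 349 with a library left out. The cause of these differences was not tested.

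The labels do not say whether libraries with the same replicate number were paired. Over 15107 genes, the difference between replicates 1 and 2 had a correlation of -0.201 between the genotypes, across genes, which are not independent. This 1 contrast cannot decide the question, since WT replicate 2 stood apart in several genes and WT replicate 3 has no partner. With the replicate block, in which WT replicate 3 has no partner and drops out of the estimate, 0 of the 10 genes, 1 machinery gene (Mmp14) and 4 target genes (Has2, Timp1, Tnc and Col3a1) passed, and Tgfbr2 had a log2 fold change of -0.62.

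Among the 10 genes signs turned for 4, whose main log2 fold changes were between -0.04 and 0.07. The log2 fold change of Tgfb2 was -0.0032 with equal totals, -0.063 with the replicate block and -0.41 to 0.43 with a library left out, that of Tgfbr1 0.0090 with the block and -0.12 to 0.036 with a library left out, that of Smad3 -5.6e-05 with quantile normalization, -0.082 with the block and -0.082 to 0.085 with a library left out, and that of Tgfb1 -0.0072 to 0.15 with a library left out. With a library left out, Tgfb3 (-0.18 to -0.0052), Smad2 (-0.30 to -0.035), Smad4 (0.047 to 0.099) and Smad7 (0.18 to 0.58) kept their sign but moved by over 1.5 times. With the longest transcript as the length the share of Tgfb3 moved from 83.8% to 77.5% in WT and from 82.5% to 75.7% in Elmo2 EID/EID myoblasts. With 2 libraries in a group, intervals of the 10 genes were wide. Where 1 Elmo2 EID/EID library was left out, the other was assumed to vary like WT.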
